A study of Homo sapiens with 12 samples.

Results

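The mRNA levels of *TOP1*, *TOP1MT*, *TOP2A*, *TOP2B*, *TOP3A*, *TOP3B*, *TDP1* and *TDP2* were followed in HCT116 cells, a human colon cancer cell line. These 8 genes, of 26364 in the count files, encode the cellular topoisomerases and the tyrosyl-DNA phosphodiesterases that repair trapped topoisomerases. They were picked by symbol and function, with earlier results of these data known. RNA-seq of total RNA gave 12 libraries, which cover every cell line with every inhibitor, with and without TNFα. The cells were HCT116 WT or clone 32, a p65-deficient derivative of the same line, and the inhibitor was none, the TOP1 inhibitor CPT (5 µM, 2 h) or the TOP2 inhibitor ICRF193 (5 µM, 2 h). TNFα was absent (0 h) or present at 20 ng/mL for 1 h. By the study's description it was added after the 2 h of pre-incubation, so that inhibited libraries with TNFα may have been exposed to the inhibitor for longer than those without it. The labels name the 6 clone 32 libraries shRNA p65, whereas the methods of the study describe a CRISPR-Cas9 clone, so that a difference from WT may belong to this 1 clone. Whether the libraries without inhibitor received the solvent is not given in the labels. Each condition had 1 library, and libraries matched for the other treatments were therefore used as pairs.

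Topoisomerases relieve the torsional stress that builds up when DNA is transcribed or replicated. Type I enzymes cut 1 strand and type II enzymes cut both strands, and each stays bound to the cut end through a tyrosine until the break is resealed. CPT traps TOP1 on the DNA, whereas ICRF193 holds the TOP2 enzymes as a closed clamp around it. TDP1 removes trapped TOP1 and TDP2 removes trapped TOP2 from the DNA end.

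The counted reads numbered 16300210 to 22051046 in WT libraries and 8101212 to 20524958 in clone 32 libraries, 4 of which (ICRF193 at 0 h and all 3 at 1 h) held at most 8755001. *RELA*, which encodes p65, had 694 to 909 normalized counts (reads divided by the DESeq2 size factor of the library) in WT and 548 to 673 in clone 32. The epithelial genes *EPCAM*, *KRT8*, *KRT18* and *CDH1* were read in every library, with at least 780 reads each, whereas the enterocyte gene *VIL1* had 0 to 4 reads. Of the markers of other cells, *PTPRC*, *CD3E*, *PECAM1*, *COL1A2* and *ALB* had at most 3 reads in any library, *VWF* had 4 to 26, *COL1A1* 57 to 227 and *CD68* 149 to 451.

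In the hg19 annotation of the files, *TOP1* lies on the plus strand at chr20:39657462-39753126, and its 3733 bases of exon are spread over 95665 bases. *TOP2A* is a compact gene of 29430 bases on the minus strand at chr17:38544773-38574202, and its paralog *TOP2B* covers 66468 bases on the minus strand at chr3:25639396-25705863. *TOP3A* (chr17:18177235-18218321) and *TOP3B* (chr22:22311397-22337240) are both on the minus strand. *TDP1* lies on the plus strand at chr14:90422246-90511108 and *TDP2* on the minus strand at chr6:24650205-24667115. *TOP1MT*, on chromosome 8, covers 50651 bases.

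Reads were counted over exons without regard to strand, and those that fell on 2 genes were not counted. *TOP1* shares 204 exonic bases, 5.46% of its exons, with the antisense gene *PLCG1-AS1* (2 to 19 reads per library), and *TOP2B* shares 27 with *RARB* (0 to 11 reads). Reads within these shared bases are therefore missing from the counts of both genes. The pseudogenes *TOP1P1* and *TOP1P2* had at most 8 reads.

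Per length, the order of the 8 genes ran from *TOP2A* to *TOP3A*. *TOP2A*, the TOP2 isoform of dividing cells, had an RPKM value (reads per kilobase of exon, scaled to the counted reads of the library) of 82.5 ± 13.5 (mean ± SD over 12 libraries of all conditions) and stood above each of the other 7 genes in every library. *TOP1*, the main type I enzyme of the nucleus, had 39.0 ± 2.59, *TOP2B*, the isoform that is also made in cells that do not divide, had 37.7 ± 2.51, and *TOP1MT*, the mitochondrial type I enzyme, had 36.2 ± 2.32 on the same scale. The ranges of these 3 overlapped, so that their order is not fixed by these libraries.

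Levels were lower for the repair enzymes and the TOP3 genes. *TDP2* had an RPKM of 20.9 ± 1.25 and lay below *TOP1MT* and above *TOP3B* in 12 of 12 libraries. *TOP3B*, whose enzyme also acts on RNA, had 12.4 ± 2.04, *TDP1* had 12.03 ± 1.17, and *TOP3A*, which resolves linked DNA together with the BLM helicase, had 11.98 ± 1.91 on this scale. These last 3 genes overlapped.

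The promoters are shown for the TOP2 and TOP3 genes, as 1 gene of the first pair and both of the second were lower with CPT. The windows hold the 250 bases before the RefSeq transcription start (GRCh38.p14), and 7 of the 8 genes were found in that table. Capitals mark CCAAT boxes, the binding sequence of the factor NF-Y, which here all lie on the opposite strand and read ATTGG.
TOP2A, chr17:40417897-40418146, minus strand: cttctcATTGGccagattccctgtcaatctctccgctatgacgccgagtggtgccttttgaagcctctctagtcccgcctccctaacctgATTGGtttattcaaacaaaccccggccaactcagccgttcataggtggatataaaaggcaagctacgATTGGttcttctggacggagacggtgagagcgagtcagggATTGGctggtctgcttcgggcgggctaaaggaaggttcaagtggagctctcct
TOP2B, chr3:25664908-25665157, minus strand: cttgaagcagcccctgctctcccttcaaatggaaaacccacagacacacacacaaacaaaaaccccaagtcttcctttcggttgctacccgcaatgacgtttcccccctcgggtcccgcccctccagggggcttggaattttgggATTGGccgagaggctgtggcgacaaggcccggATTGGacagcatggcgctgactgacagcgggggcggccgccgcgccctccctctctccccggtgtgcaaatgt
TOP3A, chr17:18314995-18315244, minus strand: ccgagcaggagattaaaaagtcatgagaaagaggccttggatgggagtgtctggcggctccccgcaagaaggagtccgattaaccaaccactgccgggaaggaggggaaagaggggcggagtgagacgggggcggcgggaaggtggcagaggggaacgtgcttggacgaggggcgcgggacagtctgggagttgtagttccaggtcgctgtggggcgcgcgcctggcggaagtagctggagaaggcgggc
TOP3B, chr22:21982788-21983037, minus strand: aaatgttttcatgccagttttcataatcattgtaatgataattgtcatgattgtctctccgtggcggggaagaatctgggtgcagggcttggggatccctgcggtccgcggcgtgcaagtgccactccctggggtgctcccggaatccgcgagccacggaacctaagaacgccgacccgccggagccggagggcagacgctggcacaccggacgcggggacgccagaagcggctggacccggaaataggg

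The *TOP2A* window held 4 CCAAT boxes, which began 244, 160, 93 and 53 bases before the start. A CCAAT box on either strand was found in 32.01% of 35116 RefSeq windows of this length, and 4 or more in 0.874%. The *TOP2B* window shown held 2, whereas the window of its other RefSeq start (chr3:25664373-25664622) held 0, as did those of *TOP1*, *TOP3A*, *TOP3B*, *TDP1* and *TDP2*. Which *TOP2B* start was used in these cells was not tested. The cell cycle element CHR, searched as TTTGAA or its complement TTCAAA, occurred 2 times in *TOP2A*, 1 time in the *TOP2B* window shown and 1 time in *TDP1*, against 13.3% of all windows with at least 1. These matches describe the letters only.

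To test the effect of trapped TOP1 on the genes, CPT was compared with no inhibitor in 4 pairs of libraries. *TOP2A*, *TOP3A*, *TOP3B* and *TDP1* had lower counts with CPT, by 13.3% to 28.8%, whereas the CPT target *TOP1*, *TOP1MT*, *TOP2B* and *TDP2* did not pass the test. The edgeR quasi-likelihood test (adjusted p under 0.05) called 47.9% of the 14573 genes tested, and the 4 of 8 lower genes stand beside 24.8% that were lower and the 0 of 8 higher genes beside 23.1% that were higher. The median log2 fold change was -0.10 over the 8 genes and 0.02 over all genes tested. The 2 libraries of each pair had like depth, as both were deep or both were shallow. In RNA from a whole culture, fewer cells that make an mRNA and less of it per cell cannot be told apart. Counts are scaled within each library, so that lower and higher are relative to its other genes, many of which also differed with CPT.

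*TOP3A* had 821 (WT, 0 h TNFα), 740 (WT, 1 h), 812 (clone 32, 0 h) and 756 (clone 32, 1 h) normalized counts without inhibitor. With CPT, the corresponding counts of *TOP3A* were 609, 568, 542 and 524. Every CPT library was thus below every library without inhibitor, as for 19.7% of all genes tested. The fitted log2 fold change was -0.49 ± 0.06 (SE, 4 pairs, edgeR adjusted p = 7.63e-05).

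*TOP3B* was lower in the 4 pairs as well, with 624, 554, 673 and 646 normalized counts without inhibitor and 415, 459, 517 and 459 with CPT, in the same order of cell line and TNFα. The groups did not overlap, which was the case for 19.7% of all genes tested in this direction. Its log2 fold change was -0.44 ± 0.07 (SE, edgeR adjusted p = 0.000407).

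*TOP2A* fell in each pair. Its normalized counts without inhibitor were 6636, 6257, 7088 and 7321, and those with CPT were 5581, 5097, 5805 and 6250. The highest CPT library lay just below the lowest library without inhibitor, a lack of overlap shared by 19.7% of all genes tested. The pairs fell by 0.23 to 0.30 on the log2 scale. The log2 fold change was -0.28 ± 0.04 (SE, edgeR adjusted p = 0.000156).

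*TDP1*, which encodes the enzyme that frees DNA ends from trapped TOP1, had 652, 646, 683 and 698 normalized counts without inhibitor and 577, 611, 601 and 541 with CPT. All 4 pairs were lower without overlap of the groups, as for 19.7% of all genes tested. The difference was the smallest of the 4 called, with a log2 fold change of -0.21 ± 0.07 (SE, edgeR adjusted p = 0.0249). This call was lost with the DESeq2 Wald test (adjusted p = 0.0803), without the clone 32 pair at 1 h TNFα (log2 fold change -0.16, edgeR adjusted p = 0.104) and in the 2 WT pairs alone (log2 fold change -0.15, edgeR adjusted p = 0.167).

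The target of CPT itself, *TOP1*, had 2168, 2200, 1766 and 1944 normalized counts without inhibitor and 2200, 2196, 2087 and 2172 with CPT. The WT pairs lay within counting error of each other, whereas both clone 32 pairs were higher with CPT, and the groups overlapped. The fitted log2 fold change was 0.09 with a 95% interval from -0.02 to 0.20 (edgeR adjusted p = 0.159). *TOP1MT* gave a similar picture, with 1161, 1193, 1009 and 1069 normalized counts without inhibitor, 1182, 1184, 1270 and 1228 with CPT, and a log2 fold change of 0.12 (interval -0.01 to 0.26, edgeR adjusted p = 0.128).

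*TOP2B* had 2796, 2844, 2533 and 2770 normalized counts without inhibitor and 3220, 2890, 2701 and 3096 with CPT. It was higher in 4 of 4 pairs, but the groups overlapped and the log2 fold change of 0.11 (interval 0.01 to 0.21) missed the threshold (edgeR adjusted p = 0.0695), which it passed only when libraries were scaled by total counts alone (adjusted p = 0.0444) or in the 2 clone 32 pairs (adjusted p = 0.0498). *TDP2*, whose product frees ends from trapped TOP2, ranged from 527 to 596 without inhibitor and from 532 to 606 with CPT. Its log2 fold change of 0.01 had a 95% interval from -0.15 to 0.16.

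**Figure D1:**
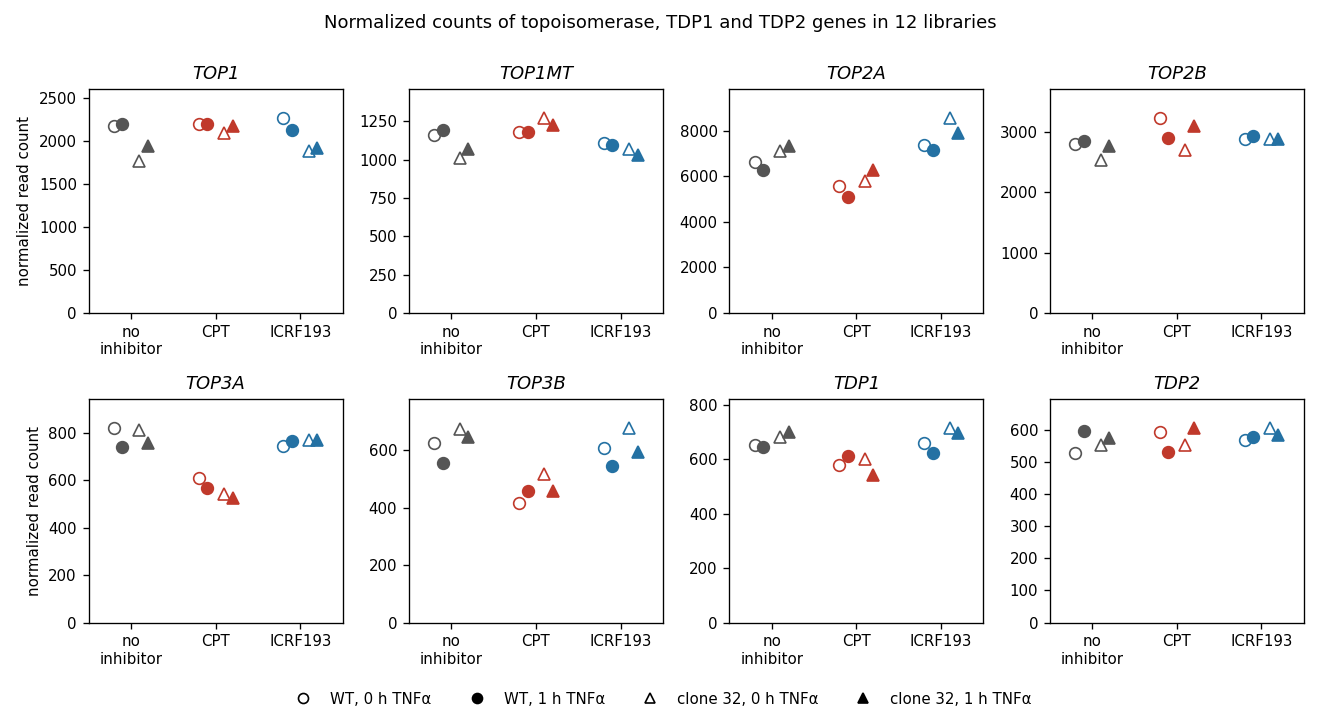
Normalized read counts (vertical axes, from 0) of the 8 genes in each of the 12 libraries, 1 point per library, by inhibitor; circles are WT and triangles clone 32, open symbols 0 h and filled symbols 1 h TNFα. The CPT points of TOP2A, TOP3A, TOP3B and TDP1 all lie below the points without inhibitor.

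The 8 genes were also set beside genes of like genomic span. The median log2 fold change with CPT was 0.20 over 3919 genes under 10 kilobases, 0.00 between 20 and 40 kilobases and -0.12 over 160 kilobases. *TOP3B* and *TOP2A*, in the class of 20 to 40 kilobases, lay below that median, as did *TOP3A*, which falls just into the next class (median -0.05). *TOP1MT* and *TOP2B* have longer spans than these 3 genes and lay above the median of their class, 40 to 80 kilobases. *TOP1* (0.09) and *TDP1* (-0.21), with similar spans of 95665 and 88863 bases, lay on either side of the median of -0.10 of the class of 80 to 160 kilobases. *TDP2* (0.01), which was not called, lay below the median of 0.09 of the class of 10 to 20 kilobases, within its interval.

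**Figure D2:**
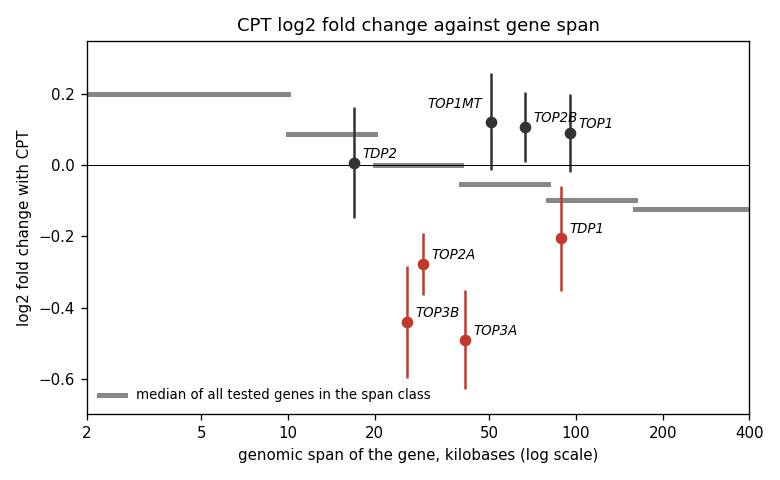
Log2 fold change with CPT (vertical axis, bars are 95% intervals from edgeR) against genomic span in kilobases (log axis) for the 8 genes, red where the adjusted p was under 0.05; grey lines give the median of all tested genes in each span class, the outer classes being drawn to the edge of the axis. The called genes TOP3B, TOP2A, TOP3A and, at a longer span, TDP1 lie below the grey lines, as does TDP2, which was not called, whereas TOP1MT, TOP2B and TOP1 lie above them.

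The effect of ICRF193 was tested against the same 4 libraries without inhibitor. *TOP2A*, which encodes a target of ICRF193, was the only one of the 8 genes to pass the test, and it was higher. Of 14101 genes tested, 2.16% were called, 0.574% higher and 1.58% lower. With ICRF193, *TOP2A* had 7349 (WT, 0 h), 7154 (WT, 1 h), 8533 (clone 32, 0 h) and 7893 (clone 32, 1 h) normalized counts, against 6636, 6257, 7088 and 7321 without inhibitor. Each pair rose, by 0.11 to 0.27 on the log2 scale with a counting interval above 0, although the groups overlapped, with clone 32 above WT in both. The log2 fold change was 0.18 ± 0.03 (SE, edgeR adjusted p = 0.000187). The clone 32 pair at 0 h, which had the highest ratio, compares a shallow with a deep library, and the call was kept without it. The call was lost without the pair as a block (log2 fold change 0.18, edgeR adjusted p = 1) and in 1 additive model over all 12 libraries (0.18, edgeR adjusted p = 0.139).

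*TOP2B*, the second target of ICRF193, had 2884, 2921, 2883 and 2871 normalized counts with the inhibitor. Every one of these was above the 4 libraries without inhibitor, which 1.07% of all genes tested showed in this direction, but the log2 fold change of 0.08 (interval 0.02 to 0.14) did not pass the test (edgeR adjusted p = 0.249). The other 6 genes had log2 fold changes between -0.04 and 0.05 with ICRF193. For *TDP2*, the 95% interval reached from -0.05 to 0.16 on the log2 scale.

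CPT and ICRF193 were also compared directly, at the same dose and, within each pair, the same time. These values share their libraries with both comparisons above, and the clone 32 pair at 0 h sets a deep CPT library against a shallow ICRF193 library. *TOP2A* differed most, with a log2 fold change of -0.47 ± 0.05 (SE, edgeR adjusted p = 6.79e-06) for CPT against ICRF193 and no overlap of the groups, a pattern shown by 19.9% of all genes tested. *TOP3A* (-0.47, adjusted p = 7.18e-05), *TOP3B* (-0.41, adjusted p = 0.000406) and *TDP1* (-0.22, adjusted p = 0.0191) were lower with CPT as well. *TOP1MT* was higher with CPT than with ICRF193, by 0.15 on the log2 scale (adjusted p = 0.0484), and the 4 CPT libraries (1182 to 1270 normalized counts) were all above the 4 ICRF193 libraries (1034 to 1107), as for 18.3% of all genes tested. Of all 14526 genes tested, 46.1% were called in this comparison, 25.1% lower and 21.0% higher with CPT. For *TOP1*, *TOP2B* and *TDP2* the intervals of the difference were -0.06 to 0.18, -0.10 to 0.13 and -0.21 to 0.09. The calls of *TDP1* and *TOP1MT* were lost with DESeq2 (adjusted p = 0.0922 and 0.0811), without the clone 32 pair at 0 h (0.0525 and 0.151), without the one at 1 h (0.112 and 0.156), and in the WT pairs alone (0.211 and 0.399). That of *TOP1MT* was also lost without the WT pair at 1 h (0.0859) and with no filter (0.0803).

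**Figure D3:**
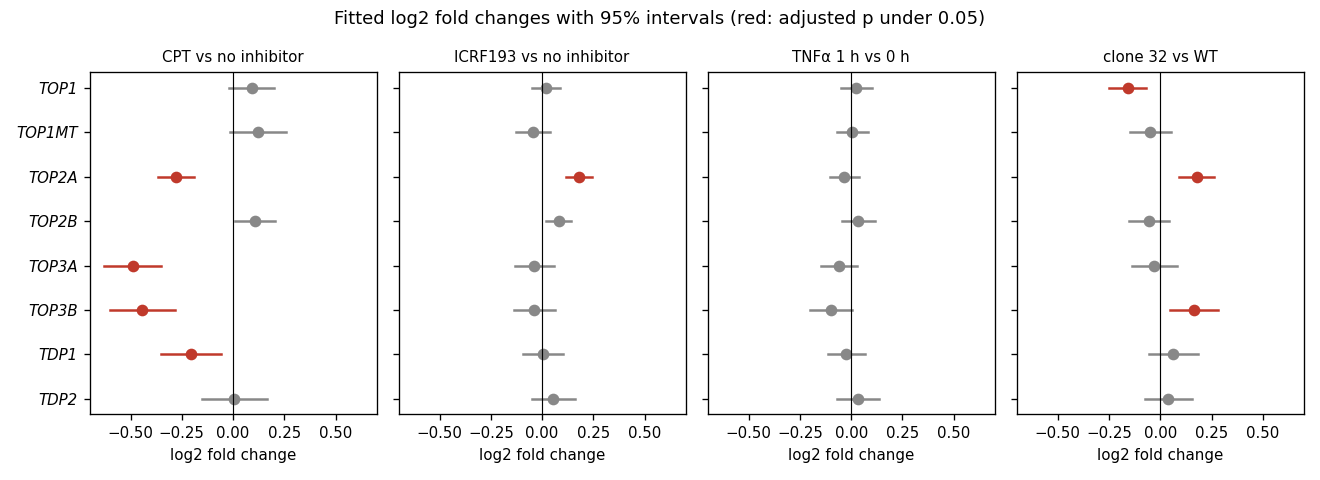
Fitted log2 fold changes of the 8 genes (points) with unadjusted 95% intervals (lines) for CPT, ICRF193, TNFα and clone 32, in red where the adjusted p over all genes tested was under 0.05. With CPT 4 genes lie to the left of 0, with ICRF193 only TOP2A is red and to the right, and with TNFα none is red.

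The ratio of the TOP2 isoforms was compared between the inhibitors as well. Without inhibitor, *TOP2A* had 2.20 (WT, 0 h TNFα), 2.04 (WT, 1 h), 2.60 (clone 32, 0 h) and 2.45 (clone 32, 1 h) times the reads of *TOP2B* per kilobase of exon. With CPT this ratio was 1.61, 1.64, 2.00 and 1.87 in the same order, so that the ranges with and without CPT did not overlap. With ICRF193 it lay between 2.28 and 2.75 and was higher than without inhibitor in each of the 4 pairs. The ratio of *TDP1* to *TDP2* ranged from 0.557 to 0.636 without inhibitor, from 0.459 to 0.590 with CPT and from 0.553 to 0.611 with ICRF193, so that these ranges overlapped. The ranges of *TOP1* to *TOP1MT* (1.03 to 1.10 without inhibitor, 0.965 to 1.09 with CPT and 1.03 to 1.20 with ICRF193) overlapped as well, although within pairs this ratio was higher with ICRF193 than without inhibitor or with CPT in 4 of 4. The ratios of *TOP3A* to *TOP3B* overlapped and had no common direction within pairs. The ratios themselves were not tested.

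**Figure D4:**
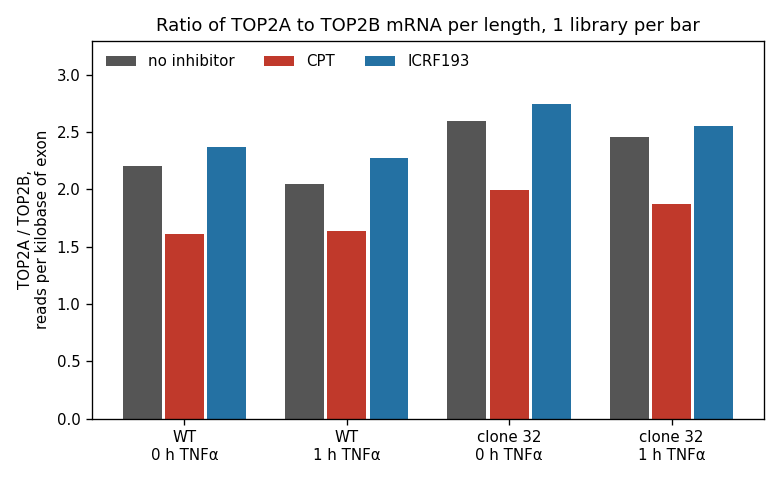
Ratio of TOP2A to TOP2B in reads per kilobase of exon (vertical axis, from 0), 1 bar per library, by cell line and TNFα. In all 4 settings the CPT bar, at 1.61 to 2.00, is the lowest and the ICRF193 bar, at 2.28 to 2.75, the highest.

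TNFα for 1 h was tested in 6 pairs of libraries. None of the 8 genes passed the edgeR test (0 of 8 by the DESeq2 Wald test as well), beside 0.210% of the 14766 genes tested. An unadjusted p under 0.05 was found for 0 of 8, beside 785 of the 14766. The log2 fold changes of the 8 genes lay between -0.10 for *TOP3B* and 0.04 for *TOP2B*. The interval of *TOP3B* was -0.20 to 0.01, and it was lower with TNFα in 5 of 6 pairs. The clone 32 pairs without inhibitor and with CPT set a shallow library with TNFα against a deep one without it, and depth and treatment cannot be told apart in them. In the 4 TNFα pairs that received an inhibitor, the time with the inhibitor may differ along with TNFα.

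Clone 32 was compared with WT in 6 pairs matched for inhibitor and TNFα, and 3 of the 8 genes differed beside 30.2% of the 14766 genes tested (14.2% higher and 16.0% lower). The count of called genes thus lies near the background. *TOP1* was lower, *TOP2A* and *TOP3B* were higher, and these differences were 10.4% to 13.1%. *TOP1* had 2124 to 2261 normalized counts in the 6 WT libraries (median 2198) and 1766 to 2172 in the 6 libraries of clone 32 (median 1928). It was lower in 6 of 6 pairs but the ranges overlapped, as the CPT library of clone 32 at 1 h TNFα (2172) lay within the WT range. The log2 fold change of *TOP1* was -0.16 ± 0.04 (SE, edgeR adjusted p = 0.0108), and the call was lost without the pair at 0 h that received no inhibitor (-0.12, edgeR adjusted p = 0.0794) or ICRF193 (-0.14, edgeR adjusted p = 0.0527).

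*TOP2A* ranged from 5097 to 7349 normalized counts in WT (median 6446) and from 5805 to 8533 in clone 32 (median 7205). It was higher in 6 of 6 pairs, with a log2 fold change of 0.18 ± 0.04 (SE, edgeR adjusted p = 0.00384). *TOP3B* (415 to 624 in WT, 459 to 677 in clone 32) was likewise higher in 6 of 6 pairs, at a log2 fold change of 0.16 ± 0.05 (SE, edgeR adjusted p = 0.0339). The latter call was lost without any 1 of the 4 pairs that received ICRF193 or no inhibitor (log2 fold change 0.15 to 0.18, adjusted p 0.051 to 0.101) and with DESeq2 (adjusted p = 0.10) or no filter (edgeR adjusted p = 0.0503). Without the pair as a block, *TOP2A* and *TOP3B* were not called (edgeR adjusted p = 0.307 and 0.417).

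Of the 6 pairs, 4 set a shallow clone 32 library against a deeper WT library. In the 2 pairs of like depth, an alternative chosen after the data were seen, the log2 fold changes were -0.19 for *TOP1*, 0.08 for *TOP2A* and 0.21 for *TOP3B* (edgeR adjusted p = 0.353, 0.725 and 0.455), and 521 genes were called in all. The part of depth in these differences was not tested further.

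Whether the inhibitors acted alike in both cell lines was tested as an interaction. With CPT, 0 of 8 genes passed the edgeR test, beside 4.78% of the genes tested (0 of 8 were called by DESeq2). An unadjusted p under 0.05 was found for 2 of 8, beside 2824 of the 14573 genes tested. These were *TOP1*, whose log2 fold change with CPT was higher in clone 32 than in WT by 0.17 (interval 0.00 to 0.34, adjusted p = 0.253), and *TOP1MT*, with 0.25 (interval 0.05 to 0.44, adjusted p = 0.146). In the 2 clone 32 pairs alone, chosen after the data were seen, the log2 fold changes were 0.19 for *TOP1* (adjusted p = 0.00227) and 0.26 for *TOP1MT* (adjusted p = 0.000775), against -0.01 for each in the 2 WT pairs (adjusted p = 0.922 and 0.915). The clone 32 fit called 7 of the 8 genes and 7216 genes in all, and the WT fit 3 and 5847. Neither fit tests a difference between the cell lines. The difference between the cell lines did not pass the test over all genes. By the interaction of ICRF193 with cell line (0.0567% of all genes called), of CPT with TNFα (0.00686%) and of TNFα with cell line (0.237%), 0 of 8 genes were called by edgeR and by DESeq2. At an unadjusted p under 0.05, these 3 interactions held 0, 0 and 1 of the 8 genes, the last being *TOP2B* (0.15, adjusted p = 0.471). Among all genes tested they held 677 of 14101, 94 of 14573 and 1447 of 14766 at that threshold.

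Genes that work with the topoisomerases or repair trapped enzymes were examined as 5 lists of 45 genes, also chosen with earlier results known. Of the 45 genes, 44 could be tested and *DDI1* could not. With CPT, 17 were lower and 6 higher (median log2 fold change -0.06, all genes 0.02), beside 24.8% lower and 23.1% higher genes among all tested. Of the 7 partners of topoisomerases, 5 were lower. *TOPORS*, a ubiquitin and SUMO ligase that binds TOP1, ranged from 885 to 1103 normalized counts without inhibitor and from 364 to 448 with CPT, a log2 fold change of -1.35 ± 0.07 (SE, edgeR adjusted p = 1e-07). *BLM*, *RMI1* and *TDRD3*, which encode partners of TOP3A and TOP3B, had log2 fold changes of -0.38, -0.39 and -0.38 (adjusted p = 0.000261, 0.0161 and 0.0038). *FMR1*, of the same list, was not called (0.07, adjusted p = 0.399). *RMI2*, of the same complex as *BLM* and *TOP3A*, was higher (0.42, adjusted p = 0.00513), with 198 to 215 normalized counts against 133 to 177.

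Among 6 tested genes of the adduct protease list, not all of which encode a protease, 4 were lower with CPT and 0 higher. The shares among all genes tested were 24.8% lower and 23.1% higher. *SPRTN*, a protease that cuts DNA-bound proteins, had a log2 fold change of -0.64 (adjusted p = 4.52e-05). Of 12 SUMO and ubiquitin enzymes, 5 were lower and 2 higher, beside the same shares, and the higher count lies near its share. *RNF4*, a ubiquitin ligase for SUMO-marked proteins, ranged from 1181 to 1505 normalized counts without inhibitor and from 523 to 662 with CPT (-1.17, adjusted p = 3.49e-08), and *BARD1*, the partner of BRCA1, from 618 to 650 and from 295 to 326 (-1.04, adjusted p = 5.27e-07).

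Of 10 genes of end processing and ligation, 2 were higher with CPT and 0 lower (median 0.12), and the higher count lies near the 23.1% of all genes tested. *PARP1*, the sensor of DNA strand breaks, had a log2 fold change of 0.18 and *XRCC6*, a subunit of the Ku protein that binds DNA ends, had 0.17 (adjusted p = 0.00619 and 0.00815). Of 9 nuclease genes, 3 were lower and *ERCC1* was higher (0.19, adjusted p = 0.018). Beside 24.8% lower and 23.1% higher among all genes tested, the lower count lies near the background. Of 10 proliferation genes, 6 were lower with CPT and 0 higher, beside the same shares of all genes, and *TOP2A* is itself a gene of dividing cells. The part of cell division in its lower count was not tested.

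**Figure D5:**
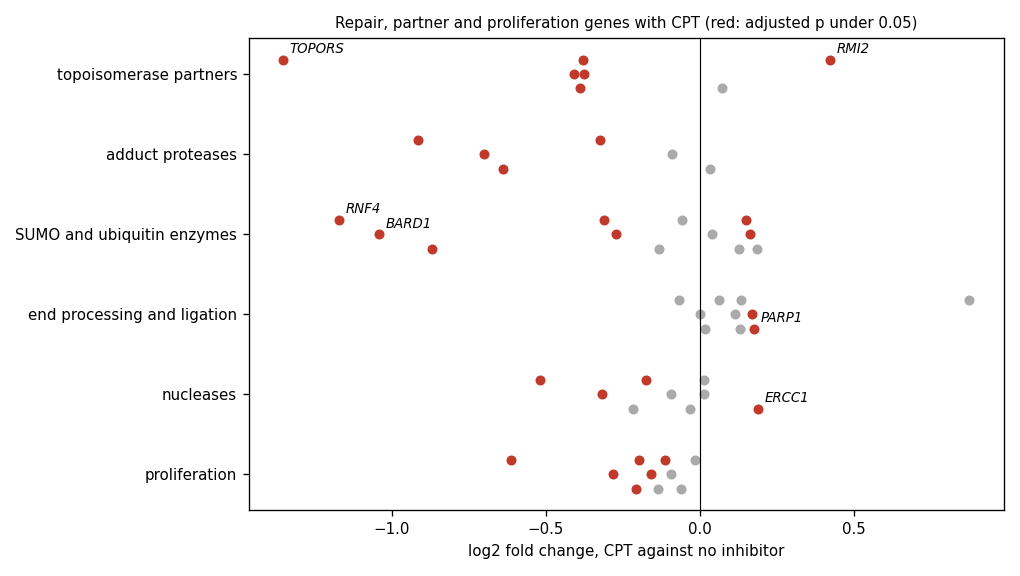
Log2 fold change with CPT against no inhibitor (horizontal axis) of 44 partner and repair genes and 10 proliferation genes, 1 point per gene by list, red where the edgeR adjusted p was under 0.05; the vertical offset within a list only separates points. The red points of the partners and adduct proteases lie left of 0 except RMI2, and the 2 of end processing and ligation lie right of 0; the grey point at 0.87 is APLF (adjusted p = 0.0515).

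With ICRF193, 0 of the 44 partner and repair genes were called, beside 2.16% of all genes tested, and with TNFα 0 of 44 were called beside 0.210%, so that neither count stands apart from the background. Of the 10 proliferation genes, 2 were higher with ICRF193, beside 0.574% of all genes tested, *CDK1*, the kinase of mitosis (0.22, adjusted p = 1.6e-06), and *MKI67* (0.18, adjusted p = 0.00013), by about as much as *TOP2A*. The other 8 were not called and had log2 fold changes from -0.04 to 0.10, and the median of the 10 was 0.02. In clone 32, 3 of 44 partner and repair genes were higher and 7 lower, where 14.2% and 16.0% of all genes tested were called in these directions, so that the lower count lies near the background. The higher genes were *FAM111A* (0.49, adjusted p = 2.16e-05), *XRCC4* (0.36, adjusted p = 0.000755) and *RMI2* (0.32, adjusted p = 0.0185), and the lower genes with the largest differences were *LIG3* (-0.26, adjusted p = 0.000697) and *RNF4* (-0.26, adjusted p = 0.000399). *CCNB1*, a cyclin of mitosis, was lower (-0.22, adjusted p = 0.000568), and *MKI67* (0.16, adjusted p = 0.0375), like *TOP2A*, was higher in the same comparison, while the other 8 proliferation genes were not called.

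For each of the 8 genes, the 3 genes with the most similar pattern over the 12 libraries were sought among 10229 genes, by Pearson's r of log2(normalized count + 1). *TOP2A* was followed most closely by *CEP97* (r = 0.98), *POLQ* (0.96) and *DICER1* (0.96), and *TOP3A* by *AMBRA1* (0.99), *C2orf44* (0.99) and *CHST3* (0.98). For *TOP3B* these were *NOTCH1*, *SRGAP2* and *INTS5* (r 0.97), and for *TDP1* they were *AP5S1*, *AHDC1* and *RGS3* (r 0.96). *TOP1* was nearest to *RPL36AL* (0.96), *TOP2B* to *ANP32E* (0.96) and *TOP1MT* to *DHX38* (0.93). *TDP2* had the weakest matches, with *KTN1* at 0.92 and *PSMD12* at 0.86. The 12 points share their inhibitors, cell lines and depths, and these values are a description.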

How the data were processed

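The authors trimmed the reads, mapped them to hg19 and deposited raw counts of reads over the exons of 26364 gene symbols, made with featureCounts 1.5.0 per the file headers; STAR and Trimmomatic are named in the submitters' processing notes. From these counts, each comparison was fitted over all genes with the edgeR 4.0.16 quasi-likelihood test (R 4.3.3, limma 3.58.1, TMM scaling, expression filter, pair of libraries as a block), and p-values were adjusted after Benjamini and Hochberg over all genes tested, with a threshold of 0.05. No condition has a replicate, and pairs that differ in cell line, TNFα or inhibitor stand in for replicates. The p-values therefore measure the spread between pairs, and not that between replicates of a condition. For each gene edgeR draws this spread towards that of other genes, so that it is not the gene's own spread alone. Where the intervals of single pairs are used, they are exact Clopper-Pearson intervals at 95%, which cover counting error only and treat reads as independent molecules. Normalized counts are reads divided by size factors from DESeq2 1.42.0. Levels per length are RPKM, computed here from the counts and the exonic lengths in the files.

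The genes and lists were chosen with earlier results of these data known. All 8 members are named, with the 3 most alike genes of each (mean of at least 100 reads). From the lists, up to 3 called genes with the largest log2 fold change in each direction are named for CPT, ICRF193 and clone 32, and 1 further gene was left out of the lists and is not reported here; *BLM*, *RMI1*, *TDRD3*, *SPRTN*, *XRCC6*, *FMR1*, *APLF*, *DDI1* and, for clone 32, *MKI67* were named after their values were seen. Promoter sequences are from RefSeq. The fits were tested on simulated data. Alternatives were other scalings (DESeq2 size factors, total counts), no filter, DESeq2, no block, 1 model over 12 libraries, and leaving out each pair; fits within 1 cell line for the inhibitors and in pairs of like depth for clone 32 were chosen after seeing the data. Values were tabulated and plotted in Python 3.11.15 (scipy 1.17.1, pandas 2.3.3, numpy 2.4.6, matplotlib 3.10.9).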

Additional observations from a re-analysis of the deposited data

How the results depend on the processing

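The 13 calls among the 8 genes kept their direction in all 159 alternative values, and 131 of these passed the threshold. The calls of *TOP2A*, *TOP3A* and *TOP3B* with CPT passed under every alternative run, as did the higher *TOP2A* with ICRF193 except without a replicate block and in 1 additive model over the 12 libraries. The pairs share treatments by design, and the block is part of the main fit. Without the replicate block, 3 genes were called with ICRF193 in place of 304 (0 of the 8), 0 with TNFα in place of 31, and 2043 with clone 32 in place of 4460 (1 of the 8 in place of 3). With the additive model, 29 genes were called for ICRF193 (0 of the 8) and 4 for TNFα. With the DESeq2 Wald test, 84 were called for ICRF193 and 6 for TNFα. For CPT against ICRF193 this test called 3 of the 8 in place of 5, beside 5264 genes in all. It called 145, 0 and 6 for the interactions of CPT, ICRF193 and TNFα with cell line in place of 696, 8 and 35. With no filter, 114 were called for TNFα and 1096, 17, 21 and 132 for the interactions of cell line with CPT and ICRF193, of CPT with TNFα, and of TNFα with cell line; with total counts only, 5 were called for ICRF193 by cell line. Leaving out a pair gave 5375 to 6464 genes with CPT (3 to 4 of the 8), 166 to 323 with ICRF193 (1 of the 8), 5397 to 6306 for CPT against ICRF193 (3 to 5 of the 8), 7 to 113 with TNFα (0 of the 8) and 3240 to 5176 with clone 32 (1 to 3 of the 8). The ICRF193 count was lowest without the WT pairs (174 and 166), and the TNFα count was 113 without the WT pair with CPT and 7 without the WT pair with no inhibitor. In the WT pairs alone, 91 genes were called for TNFα, and 3 of the 8 for CPT against ICRF193, beside 6022 genes in all. In the clone 32 pairs alone, 7 of the 8 were called with CPT, beside 7216 genes in all, and 89 genes were called with ICRF193. In the 2 pairs of like depth, 0 of the 8 and 521 genes in all were called for clone 32. Among all values of the 8 genes that were not called, 38 changed sign, none past 0.0513 on the log2 scale and none called under the alternative. Of those given in the report, *TOP1* and *TOP1MT* with CPT were -0.011 and -0.012 in the WT pairs alone, and *TDP2* with CPT was -0.014 with no filter, -0.015 in the WT pairs alone and -0.051 to 0.070 when a pair was left out. For CPT against ICRF193, *TOP1* was -0.019 in the WT pairs alone, and *TOP2B* was -0.014 in the clone 32 pairs alone and -0.022 to 0.059 when a pair was left out. *TOP2B* with TNFα was -0.039 in the WT pairs alone.

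The shallowest library held 8101212 counted reads, and *TOP3B* had its lowest count, 263 reads, in the clone 32 library with CPT and TNFα, which limits what a single pair can show. Simulated counts of these designs had 43, 81 and 66 of 100 genes with a log2 change of 0.3 recovered for CPT, ICRF193 and clone 32. Of 100 genes with a log2 change of 1, 100 were recovered in each, with 4, 10 and 6 false calls. Few genes were changed in the simulation, at a shared dispersion and without pair effects, whereas 6976 were called with CPT in the data. These counts therefore do not give the recovery in the data. The causes of the lost calls were not tested.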
